A study of Rattus norvegicus with 5 samples.

Results

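The comparison set 3 estrogen receptor ligands together against hypoxia alone in cultured rat vascular smooth muscle cells (VSMC), which give the wall of a blood vessel its tone. For each gene the log2 values of the In-Cl, DPN and E2 libraries were averaged, and the value of the hypoxia library was subtracted. Genes were kept where the mean linear value over the 5 libraries of the series was at least 100, with 1 row per symbol. This left 8814 symbols from 8872 rows of 17048 in all. Zfp418 was the last symbol inside that limit, with a mean of 100.03, and Acvr1b lay just outside it, with 99.92. Of the 8814 symbols, 4849 (55.0%) differed from hypoxia in the same direction in all 3 ligand libraries, 2443 upward and 2406 downward. A shared sign requires only that hypoxia was the lowest or highest of these 4 libraries. The 55.0% by itself is therefore no measure of agreement among the ligands.

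There were 5 groups with 1 library each. CON was the control culture. Hypoxia was 24 h of low oxygen with no ligand, and the remaining 3 cultures received a ligand before the same 24 h, namely In-Cl at 0.1 µM, DPN at 0.1 µM or E2 at 10 nM. All cultures were grown in DMEM/F12 medium on coated plastic. The labels used here give no vehicle, oxygen level, cell passage or animal. With 1 library per group no difference has a replicate check and no p-value is given, so every statement compares libraries and not conditions. The 3 differences share the single hypoxia library, so a gene that was unusually low or high in that library alone takes the same sign in all 3.

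Estrogen receptors alpha and beta are nuclear receptors that bind DNA as dimers once a ligand is bound, and they activate or repress genes together with coregulator proteins. E2 is estradiol, the natural hormone, which binds both. DPN is a diarylpropionitrile that prefers the beta receptor, and In-Cl is the compound called Indazole-Cl in the series title. Low oxygen stabilises hypoxia-inducible factor, which raises enzymes of glycolysis, glucose and lactate transporters and other genes of the response to low oxygen. The series title names hypoxia-induced cyclooxygenase-2, the product of Ptgs2, as the subject of the study.

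Deposited linear values added up to 20663687 in the control, the smallest sum, and 22837695 in hypoxia, the largest. In approximate reads the depth ran from 20200000 with E2 to 24600000 in the control. A linear value below is a read count that the authors adjusted to a common library size, so it compares libraries for 1 gene and not levels between genes. To check the label, markers were summed per library, and these sums compare libraries and not cell types. The 23 genes of the contractile smooth muscle list, not all of them exclusive to smooth muscle, summed to between 523563 (In-Cl) and 619329 (hypoxia). Markers of other cells gave sums of 461 to 580 for 10 endothelial genes (Kdr, Cdh5 and Emcn at 0 in all 5), 222 to 286 for 10 leukocyte genes (Itgam and Cd3e at 0) and 8.28 to 11.5 for 7 adipocyte genes (Adipoq and Cidec at 0). The 9 fibroblast genes, several of which smooth muscle also expresses, summed to 15685 to 18378, with Dpt at 0. Sums were 129 to 295 for 7 glial genes, 223 to 568 for 7 epithelial genes and 1.1 to 6.02 for 4 erythroid genes. In these bulk cultures fewer cells of a type and less RNA per cell cannot be told apart.

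The shared differences were small. A size limit was set at 0.32 on the log2 scale, a ratio of 5 to 4, in each of the 3 libraries. It left 89 genes higher than in hypoxia (1.01% of the 8814) and 49 lower (0.556%). These counts depended on the filter and the libraries: they were 19 and 7 among genes of mean linear value 500 or more, 470 and 621 with no filter beyond detection, and 115 and 93, 212 and 102, and 161 and 118 when In-Cl, DPN or E2 in turn was left out, which can only raise them. At 1.5-fold in each, 10 were higher (0.113%) and 2 lower (0.0227%), and at 2-fold in each there were 0 in either direction. The counting interval used here, an exact Clopper-Pearson 95% interval on approximate reads, covers counting error only. It lay above 0 in all 3 libraries for 538 genes (6.1%) and below 0 in all 3 for 524 (5.95%). Of the 89 genes 80 were among the former and of the 49 genes 47 were among the latter. Tp53inp1 and Ercc1 were the last higher and the last lower gene inside the size limit. Just outside it, at the least of the 3 fold differences, were Mtmr12 at 1.247-fold higher and Slc41a3 at 1.249-fold lower.

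Small RNAs and uncharacterised symbols were left out of this ranking, among them LOC498592 and RGD1565355, with least log2 differences of 0.67 and 0.64. Among the other genes higher with all 3 ligands, the 12 with the largest least difference were Tanc2, Helz2, RT1-CE3, Prkaa2, Atad2b, Spred1, Nfib, Slc4a7, Crispld2, Trove2, Kif5c and Fam122b. They include a helicase, a class I histocompatibility gene, a kinase of the energy sensor AMPK and a bicarbonate transporter. Tanc2, a scaffold protein, had a linear value of 78.6 in the control and 69.3 in hypoxia, and 140, 122 and 136 with In-Cl, DPN and E2 in turn. The ligand values lay close together and above both the hypoxia and the control value, and their mean was 1.9-fold the hypoxia value (log2 differences 1.0, 0.80 and 0.96 in the order In-Cl, DPN, E2). Helz2, an interferon-inducible helicase, had 92.5 in the control and 63.1 in hypoxia, and 125, 111 and 109 with In-Cl, DPN and E2 in turn. Its log2 differences were 0.98 (interval 0.54 to 1.46), 0.81 (0.35 to 1.30) and 0.77 (0.31 to 1.27). RT1-CE3, a class I gene of the rat major histocompatibility complex, had 118 in the control and 91.0 in hypoxia, and 169, 175 and 155 with In-Cl, DPN and E2 in turn. It belongs to a family of near-identical copies among which reads can be split, so its value is uncertain.

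Signalling genes were among them. Prkaa2, the alpha 2 catalytic subunit of AMPK, had a linear value of 187 in the control and 117 in hypoxia, and 211, 183 and 201 with In-Cl, DPN and E2 in turn. The hypoxia library was the low one, and the 3 ligand values stood on either side of the control (log2 against hypoxia 0.85, 0.64 and 0.78). Spred1, an inhibitor of Ras and ERK signalling, had 144, 113, 175, 190 and 217 in the order control, hypoxia, In-Cl, DPN, E2. The 3 ligand values all lay above the control, the E2 value farthest. Slc4a7, a sodium bicarbonate cotransporter, had 353 in the control and 186 in hypoxia, and 320, 282 and 312 with In-Cl, DPN and E2 in turn. All 3 stood between hypoxia and control, and their mean made up 76.8% of the log2 difference between hypoxia and control.

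Nfib and Crispld2 differed from the other 10 in that the control was the lowest library. Nfib, a transcription factor, had a linear value of 60.4 in the control and 87.9 in hypoxia, and 188, 141 and 136 with In-Cl, DPN and E2 in turn. Crispld2, a secreted protein, had 219 in the control and 302 in hypoxia, and 517, 453 and 450 with In-Cl, DPN and E2 in turn. Both therefore moved further from the control with ligand. Kif5c, a kinesin heavy chain, had 219, 132, 196, 220 and 266 in the order control, hypoxia, In-Cl, DPN, E2, and Trove2, an RNA-binding protein, had 181, 161, 321, 240 and 242. Atad2b, a bromodomain protein, had 90.5, 75.5, 173, 118 and 121 in that order, and Fam122b had 782, 676, 1045, 1087 and 983. In Trove2 and Atad2b the In-Cl value stood apart above the other 2 ligands, and in Kif5c the E2 value did.

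Small RNAs and uncharacterised symbols were again left out, among them RGD1309808 and Bc1, with least log2 differences of 0.87 and 0.81. Both lay beyond the 0.58 of Pop5, and they were the only lower genes at 1.5-fold in each ligand library. Among the other genes lower with all 3 ligands, the 12 with the largest least difference were Pop5, Ager, Zfp689, Msx1, Rp9, Actg2, Fam229b, Wdr4, Notch4, Slc10a2, Rdm1 and Akr1c13. Notch4, a receptor of the Notch family best known in vessels, had a linear value of 129 in the control and 443 in hypoxia, and 183, 322 and 169 with In-Cl, DPN and E2 in turn. All 3 ligand values lay between hypoxia and control, the DPN value nearest to hypoxia (log2 against hypoxia -1.27, -0.46 and -1.39), with a ligand mean 2.06-fold below hypoxia. Ager, the receptor for advanced glycation end products, had 72.4, 201, 89.8, 138 and 101 in the order control, hypoxia, In-Cl, DPN, E2, again with DPN the nearest to hypoxia. Notch4 and Ager stand 3 rows apart in the files. Pbx2, which lies between them, differed less, at -0.14, -0.04 and -0.25. Whether reads of these neighbours could be shared was not tested, since the use of strand in counting is not given in the sources used here.

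Msx1, a homeobox transcription factor, had a linear value of 78.7 in the control and 150 in hypoxia, and 78.9, 94.4 and 105 with In-Cl, DPN and E2 in turn. The In-Cl value was at the control level, and the ligand mean made up 75.5% of the log2 difference between hypoxia and control. Actg2, the gamma actin of smooth muscle, had 244 in the control and 290 in hypoxia, and 136, 205 and 199 with In-Cl, DPN and E2 in turn. All 3 ligand values lay below the control as well as below hypoxia. Pop5, a subunit of ribonuclease P, had 203, 176, 111, 118 and 115 in the order control, hypoxia, In-Cl, DPN, E2, and Wdr4, a subunit of a transfer RNA methyltransferase, had 275, 275, 184, 198 and 194. For these last 2 genes hypoxia was not above the control.

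The other 6 were also higher in hypoxia than in the control. Slc10a2, a bile acid transporter, had a linear value of 687 in the control and 1209 in hypoxia, and 867, 886 and 846 with In-Cl, DPN and E2 in turn, a ligand range of only 0.07 on the log2 scale. Akr1c13, an aldo-keto reductase, had 142, 367, 217, 270 and 242 in the order control, hypoxia, In-Cl, DPN, E2. Fam229b had 62.2, 187, 106, 132 and 98.0, Rdm1, which carries a RAD52-like motif, 115, 209, 137, 154 and 133, Rp9 107, 162, 109, 113 and 97.0, and the zinc finger gene Zfp689 130, 158, 98.6, 109 and 104. In Rp9 and Zfp689 the ligand mean lay below the control, and in the other 4 it lay between hypoxia and control. Bc1, a small noncoding RNA outside the rule for named genes and chosen after its values were seen, had 198, 357, 166, 203 and 197. The uncharacterised RGD1309808, also outside that rule, had 164, 531, 198, 150 and 291.

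**Figure D1:**
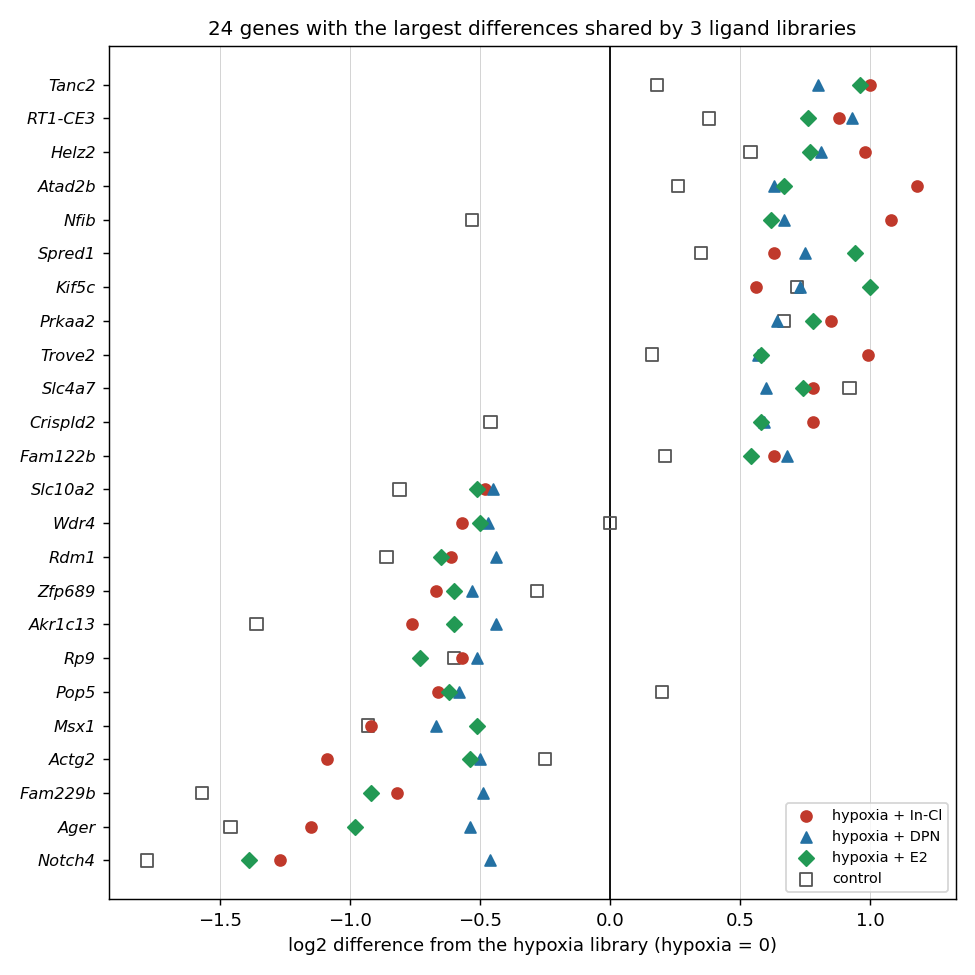
Log2 difference from the hypoxia library (horizontal axis, hypoxia at 0) of the 24 genes named above, 1 row per gene, with 1 point for each ligand library and an open square for the control. In 10 of the 12 higher genes no point lies left of hypoxia (the others are Nfib and Crispld2), and among the 12 lower genes only Pop5 and Wdr4 have a control point at or to the right of hypoxia.

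The hypoxia library was the extreme of all 5 for most of these genes. A shared sign already makes it the extreme among the hypoxia and ligand libraries, so only the control could change this. The counting interval of hypoxia minus control included 0 for example in Tanc2 (-0.66 to 0.28), Atad2b (-0.72 to 0.18), Trove2 (-0.47 to 0.14) and Zfp689 (-0.05 to 0.61). Hypoxia was the lowest in 10 of the 12 higher genes and the highest in 10 of the 12 lower ones. The same held for 64 of the 89 genes (71.9%) and 37 of the 49 (75.5%) inside the size limit. Over all genes with a shared sign it held for 1519 of 2443 (62.2%) and 1248 of 2406 (51.9%). How much of this belongs to that single library and how much to the ligands cannot be told apart.

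The larger shared differences sat in genes of modest abundance. Of the 89 higher genes 33 had a mean linear value under 200, and the median was 255, against 683 for the genes outside both sets. Of the 49 lower genes 25 were under 200, with a median of 196. In-Cl gave the largest of the 3 differences in 51 of the 89 and 27 of the 49, E2 in 22 and 14, and DPN in 16 and 8. Over the 8676 genes outside both sets In-Cl gave the largest in 4530, E2 in 2168 and DPN in 1978, which are similar shares for the 89.

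Further members of the 89, chosen after their values were seen, belong to growth and calcium signalling. Irs1, the insulin receptor substrate, had a linear value of 150 in the control and 114 in hypoxia, and 180, 148 and 158 with In-Cl, DPN and E2 in turn. Gna13, a G protein subunit, had 98.1, 96.1, 139, 129 and 143 in the order control, hypoxia, In-Cl, DPN, E2. The cyclic nucleotide phosphodiesterases Pde1c (224, 131, 180, 188 and 186) and Pde4b (123, 98.3, 142, 185 and 131) and the channel subunit Trpc1 (211, 200, 290, 268 and 278) were also higher in all 3. Foxo1, a transcription factor restrained by insulin signalling, had 169, 253, 372, 324 and 358, so there the control was lowest. Of the Zdhhc family of palmitoyl transferases 18 genes were kept, of which 6 were higher and 3 lower in all 3, beside 27.7% and 27.3% over all genes. At any size the family was thus near the background. In the higher direction 3 of the 18 lay inside the size limit, beside 1.01% of all genes, and the family was chosen after these values were seen. Among the lower genes Cbr1, a carbonyl reductase, had 4320, 5579, 3052, 4167 and 2816, all 3 ligand values below the control and DPN the nearest to it.

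Some of these genes are neighbours in the files and may not be separate observations. Abcg3 and Abcg3l3 stand 1 row apart and had mean log2 differences of 0.50 and 0.49, and Fam122b and Plac1, also 1 row apart, had 0.62 and 0.68. Nfib and Zdhhc21 stand 2 rows apart with 0.79 and 0.56, and Setd7 and Foxo1 stand 3 rows apart with 0.55 and 0.47.

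Estrogen receptors bind a palindrome, the estrogen response element, with arms AGGTCA and TGACCT and 3 bases between them, and a promoter table allows these letters to be counted. The table, from RefSeq build GRCr8, holds 300 bases per gene, 250 before to 50 after the start, and it gave a promoter for 7279 of the 8814 symbols. The files were made on build rn6, so the promoters serve by gene name only. The full palindrome, on either strand, was in 1 of 27457 promoters of all genes and in 0 of the 7279. A single arm, AGGTCA on either strand, which every full palindrome would also hold, was in 11.1% of the 7279, in 8 of 72 promoters of the higher genes inside the size limit (11.1%) and in 8 of 42 of the lower ones (19%). Over all genes with a shared sign, an arm was in 9.9% of 2001 promoters of higher genes and 12.3% of 1974 of lower ones. Of the 24 named genes 5 hold an arm, and 4 of them are printed to show where it lies, 2 higher and 2 lower, leaving out RT1-CE3 for its near-identical copies. Each is written 5′ to 3′ in the sense of the gene with the arm in capitals, which in all 4 reads as the complement, TGACCT.
Helz2: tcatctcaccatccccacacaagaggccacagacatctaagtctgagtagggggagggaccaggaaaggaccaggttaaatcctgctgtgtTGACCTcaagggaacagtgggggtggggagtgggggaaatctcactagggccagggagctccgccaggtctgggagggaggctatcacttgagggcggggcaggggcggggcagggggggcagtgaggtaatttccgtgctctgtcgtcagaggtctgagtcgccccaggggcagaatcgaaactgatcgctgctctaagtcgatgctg
Crispld2: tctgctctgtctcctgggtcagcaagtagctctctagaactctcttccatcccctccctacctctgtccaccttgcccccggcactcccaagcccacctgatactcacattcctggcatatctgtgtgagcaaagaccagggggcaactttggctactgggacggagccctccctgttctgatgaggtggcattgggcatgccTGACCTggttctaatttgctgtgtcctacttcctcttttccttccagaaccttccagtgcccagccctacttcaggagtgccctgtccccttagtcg
Notch4: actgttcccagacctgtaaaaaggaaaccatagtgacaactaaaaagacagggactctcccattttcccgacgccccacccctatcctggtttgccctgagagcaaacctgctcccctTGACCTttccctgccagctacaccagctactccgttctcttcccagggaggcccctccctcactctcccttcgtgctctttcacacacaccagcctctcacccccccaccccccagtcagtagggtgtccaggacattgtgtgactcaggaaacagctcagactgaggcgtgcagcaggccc
Pop5: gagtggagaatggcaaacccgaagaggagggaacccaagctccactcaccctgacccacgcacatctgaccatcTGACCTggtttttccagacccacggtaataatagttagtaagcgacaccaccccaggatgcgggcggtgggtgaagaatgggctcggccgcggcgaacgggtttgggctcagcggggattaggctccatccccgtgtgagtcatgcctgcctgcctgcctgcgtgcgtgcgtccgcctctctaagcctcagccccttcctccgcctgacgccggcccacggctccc

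These windows are chr3:188730667-188730966 on the minus strand for Helz2, chr19:64978706-64979005 on the plus strand for Crispld2, chr20:4189023-4189322 on the minus strand for Notch4 and chr12:47041983-47042282 on the minus strand for Pop5, all on GRCr8. The arm begins 159 bases before the start in Helz2, 47 in Crispld2, 132 in Notch4 and 176 in Pop5. A match is a run of letters and not a bound site, and the rest of the genome was not searched.

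Other motifs were counted in the same way. ACGTG, the core of the hypoxia response element, on either strand, was in 27.7% of the 7279 promoters, in 15 of 72 of the higher genes (20.8%) and in 4 of 42 of the lower ones (9.52%). TGANTCA, the AP-1 core, was in 4.44%, in 3 of 72 and in 5 of 42 (11.9%), and the 5 include Pop5, Slc10a2, Notch4 and Actg2. The GC box GGGCGG was in 65.9%, 62.5% and 47.6% in the same order. The CArG box, the site of serum response factor, was in 91 of the 7279, in 1 of 72 (Dcaf17) and in 0 of 42. Over all genes with a shared sign the shares lay nearer to those of the 7279. In 2001 higher and 1974 lower promoters in turn, the hypoxia response core was in 27.3% and 27.7%. The AP-1 core was in 3.5% and 5.83%, and the GC box in 67.3% and 65.0%. The median GC content of the promoters was 59.5% in the higher, 57.0% in the lower and 61.7% in the other genes.

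The second question of the comparison is whether the shared differences lead back to the control. For each gene the ligand mean was classed as toward the control when it lay between hypoxia and control, past the control when it lay beyond it, and away when it lay on the other side of hypoxia. Of the 2443 genes with a shared upward difference 907 were toward, 612 past and 923 away. Of the 2406 with a shared downward difference 802 were toward, 446 past and 1155 away. Both differences contain the hypoxia library, so the classes are not independent of it, and over all 8814 symbols 3437 were toward, 1309 past and 4060 away. Among the 89 higher genes inside the size limit, 14 were toward, 50 past and 25 away, and among the 49 the numbers were 19, 18 and 12. The class follows the sign of the hypoxia difference however small it is. Counting intervals of hypoxia minus control included 0 in past genes such as Gna13 (-0.44 to 0.37) and Lrp11 (-0.30 to 0.22). They also did in away genes such as Lnpep (-0.22 to 0.28) and Nr2c2 (-0.21 to 0.26). For such genes the class is not settled within counting error. All 3 ligand libraries lay above the control in 67 of the 89 and below it in 25 of the 49, counts that take in the away genes, where hypoxia lay on that side too.

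**Figure D2:**
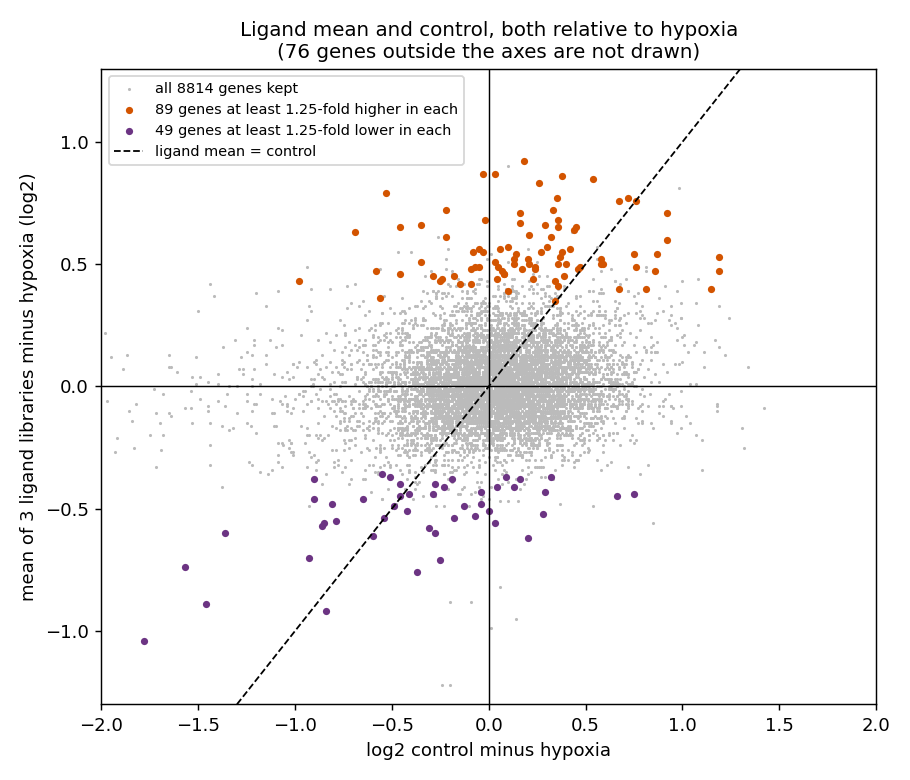
Mean of the 3 ligand libraries minus hypoxia (log2, vertical axis) against control minus hypoxia (log2, horizontal axis), 1 point per gene, with the genes inside the size limit coloured. The hypoxia library enters both axes, 76 genes lie outside the axes, and of the 89 higher genes 50 lie past the control.

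The 6 lowest genes in the class past the control by mean difference were Ascl3, Nrip3, Tmem9b, St5, Dennd5a and Akip1, and all 6 were far lower in the DPN library than in any other. They stand close together in the files. Nrip3 had a linear value of 8846 in the control and 10204 in hypoxia, and 8706, 127 and 9095 with In-Cl, DPN and E2 in turn. Against hypoxia the 6 genes were at -0.20 to -0.37 with In-Cl, -0.12 to -0.17 with E2 and -2.14 to -7.95 with DPN. Their mean over the 3 ligands is therefore no shared difference. The 6 highest genes in that class were Tanc2, RT1-CE3, Kif5c, Spred1, Helz2 and Atad2b, described above.

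Most genes at least 2-fold higher in the hypoxia library than in the control were also that high in all 3 ligand libraries. Of the 8814 symbols 200 stood at 2-fold or more over the control in hypoxia (2.27%) and 36 at 2-fold or more under it (0.408%). Of the 200, 151 still stood that far over the control with each of the 3 ligands. In all, 81 of the 200 (40.5%) were lower than hypoxia in all 3, beside 27.3% of all genes, 33 (16.5%) were higher in all 3, and 124 had a ligand mean toward the control. The share of the log2 difference that the ligand mean took back had a median of 3.01% (quartiles -3.17% and 9.99%). It was at least 25% in 16 genes and at least 50% in 3, the uncharacterised RGD1309808 (81.0%), Ager (61.1%) and Notch4 (58.4%). By ligand the median was 3.57%, 3.11% and 1.87% with In-Cl, DPN and E2 in turn.

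Among the strongest hypoxia genes whose 3 ligand values all lay toward the control, the steps were small. Slc16a3, which exports lactate, had a linear value of 100 in the control and 3344 in hypoxia, and 2924, 3097 and 3022 with In-Cl, DPN and E2 in turn. Egln3, a prolyl hydroxylase that senses oxygen, had 29.4, 1059, 1015, 1032 and 1011 in the order control, hypoxia, In-Cl, DPN, E2, and its 3 counting intervals against hypoxia all included 0. Mgarp, a mitochondrial protein, had 3.56, 246, 168, 199 and 202, and Cox4i2, the hypoxic isoform of a cytochrome oxidase subunit, had 16.8, 385, 283, 354 and 272. Fam162a, a mitochondrial target of hypoxia-inducible factor, had 841, 12009, 9850, 11213 and 11520. Lamb3, a laminin chain, was listed at 0 in the control and had 201, 181, 162 and 156. Vwa1, an extracellular matrix protein, had 21.8, 559, 502, 458 and 533, and the aldolase Aldoc had 42.0, 630, 584, 579 and 599. The 3 intervals of Aldoc also all included 0. In each of these 8 genes the ligand mean took back under 10% of the log2 difference, from 1.07% in Egln3 to 7.97% in Cox4i2.

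Genes that were low in hypoxia took back a larger median share, on fewer genes. Of the 36, 15 (41.7%) were higher than hypoxia in all 3 ligand libraries, beside 27.7% of all genes, 4 were lower, and 25 had a mean toward the control. The median share taken back was 13.1% (quartiles -6.46% and 22.6%), with 2.76% for In-Cl, 16.3% for DPN and 8.48% for E2, and 12 of the 36 still stood 2-fold or more under the control with each ligand. Figf, which encodes the growth factor VEGF-D, had a linear value of 353 in the control and 74.6 in hypoxia, and 118, 190 and 88.6 with In-Cl, DPN and E2 in turn, so DPN stood apart. Slc35d1, a nucleotide sugar transporter, had 185, 80.7, 111, 121 and 118 in the order control, hypoxia, In-Cl, DPN, E2, the largest share taken back of the 36 (44.3%). Ptn, the growth factor pleiotrophin, had 169, 75.5, 102, 101 and 98.0. Tomm40l of the mitochondrial outer membrane had 195, 84.8, 111, 119 and 123, the peptidyl-prolyl isomerase Ppil3 933, 394, 413, 561 and 469, the amino acid transporter Slc7a8 400, 178, 206, 212 and 193, and the methyltransferase Setd6 185, 84.7, 91.7, 88.1 and 89.3. In Ptn, Slc7a8 and Setd6 the 3 counting intervals against hypoxia all included 0.

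These medians had the opposite sign when other libraries chose the genes. When the genes were chosen by the ligand mean against the control, and not by hypoxia against the control, 196 were 2-fold or more higher and 168 of them were in the first set. Their median share taken back was -0.436%, with 54 lower and 57 higher than hypoxia in all 3. For the 46 genes chosen as 2-fold or more lower, 19 of them shared with the first set, the median was -9.01%, with 2 higher and 22 lower in all 3. Either choice uses a library that also enters the share taken back, hypoxia in the first and the ligands in the second, so neither median is free of how the genes were chosen.

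**Figure D3:**
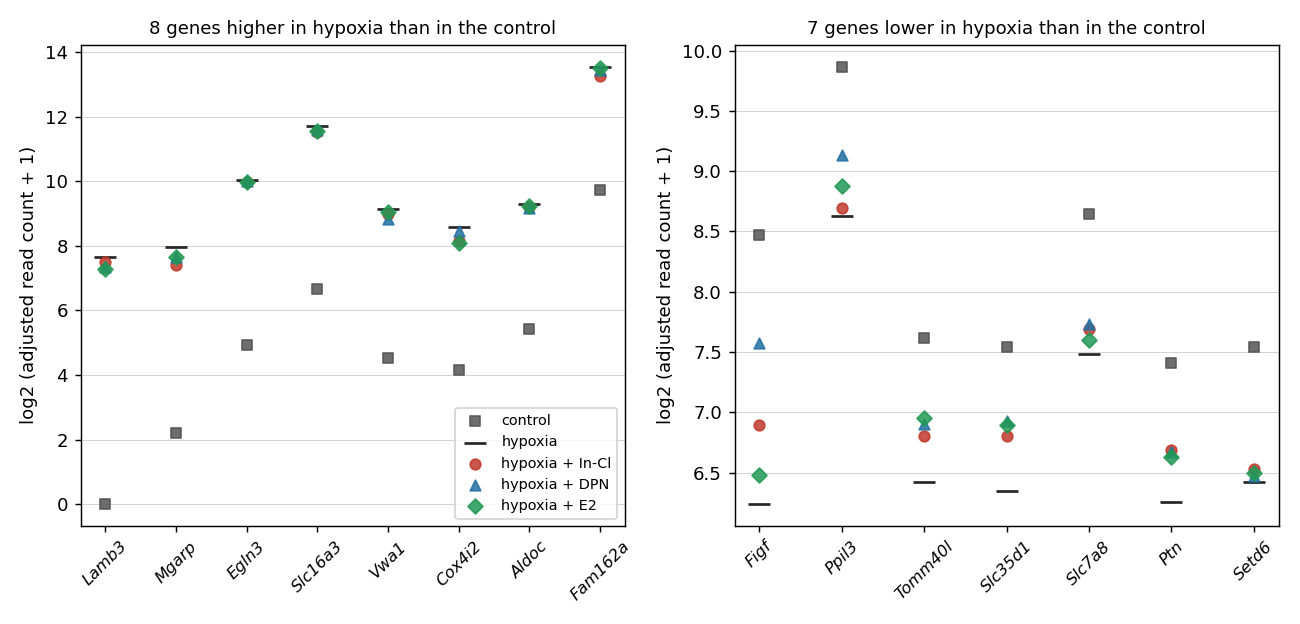
Deposited log2 values (log2 of the adjusted read count plus 1, vertical axis) in the 5 libraries of the hypoxia genes named for lying toward the control with all 3 ligands, 8 higher and 7 lower in hypoxia, 1 point per library, with Lamb3 listed at 0 in the control. In the 8 genes higher in hypoxia the ligand points sit close to the hypoxia point, from 1.07% to 7.97% of the log2 difference taken back.

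Lists of genes with a known role were counted the same way, beside 27.7% higher and 27.3% lower in all 3 over the 8814 symbols. Of 22 glycolysis genes, whose median log2 difference between hypoxia and control was 2.42, 11 were lower than hypoxia in all 3 ligand libraries and 2 higher, with a median of -0.06. Gapdh had a linear value of 57131 in the control and 216348 in hypoxia, and 179173, 185749 and 196476 with In-Cl, DPN and E2 in turn, and Aldoa had 15618, 71964, 62778, 64902 and 63876. Hk2, a hexokinase, was mixed, at 0.36, -0.07 and 0.14 against hypoxia. After quantile normalization 5 of the 22 were lower in all 3, beside 2424 of all 8814. Of 35 genes of the wider hypoxia response 11 were higher and 10 lower, with a median of -0.03. The demethylase Kdm3a (3853 in hypoxia, then 4813, 4155 and 4266 with In-Cl, DPN and E2) and the transferrin receptor Tfrc (2440, then 3086, 3000 and 2915) were highest. Hmox1, the inducible heme oxygenase, was among the lower ones (4623, then 4112, 4144 and 4193).

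Contractile and actin genes leaned downward, most with In-Cl. Of 19 contractile genes 10 were lower in all 3 (52.6%) and 2 higher, with a median of -0.18, made up of -0.29, -0.18 and -0.06 with In-Cl, DPN and E2 in turn. Acta2, the alpha actin of smooth muscle, had a linear value of 119362 in the control and 152451 in hypoxia, and 108399, 115616 and 143132 with In-Cl, DPN and E2 in turn. Tagln, an actin-binding protein, had 89090, 94366, 71814, 79572 and 89835 in the order control, hypoxia, In-Cl, DPN, E2, and Myl9, a myosin light chain, had 10861, 14961, 10831, 11910 and 14501. In all 3 genes the E2 value stood near hypoxia and the In-Cl and DPN values below it. Cnn1, calponin, split by ligand, at -0.57, -0.36 and 0.08 against hypoxia, and Mylk, the myosin light chain kinase, was at 0.39, -0.07 and 0.16. Near the upper end of the list Pln was at 0.03, 0.46 and -0.23. Near the lower end Ppp1r14a was at -0.66, -0.18 and -0.40. Of 23 genes of the actin cytoskeleton and of serum response factor 14 were lower (60.9%) and 0 higher, with a median of -0.11; Acta1 had 3206, 4141, 2770, 3044 and 3652. The fibroblast markers did not share a sign in 3 of their 4 kept members, and the part of cell makeup in these counts was not tested.

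The cytosolic ribosomal proteins gave the most uniform count of the lists on the deposited scale, at small size, and lists of the mitochondria and the proteasome were also more often lower than higher. Of 81 cytosolic ribosomal protein genes 73 were lower in all 3 (90.1%) and 0 higher, with a median of -0.14, or -0.25, -0.07 and -0.09 with In-Cl, DPN and E2 in turn. After quantile normalization 38 of the 81 were lower in all 3, beside 2424 of all 8814 symbols. Rps28 was lowest, with a linear value of 7637 in the control and 8724 in hypoxia, and 6644, 7808 and 7808 with In-Cl, DPN and E2 in turn, and Rpl21 was highest, at -0.08, 0.06 and -0.07 against hypoxia. Of 76 genes of mitochondrial respiration 40 were lower (52.6%) and 0 higher, with a median of -0.11, and Atp5g1, an ATP synthase subunit, had 2003, 1606, 1196, 1419 and 1327 in the order control, hypoxia, In-Cl, DPN, E2. Of 69 mitochondrial ribosomal protein genes 31 were lower and 5 higher, and for 3 of the 31 all 3 counting intervals lay below 0. Of 34 proteasome genes 14 were lower and 0 higher, and for 4 of the 14 all 3 intervals lay below 0. With the E2 library left out, 25 proteasome genes were lower, beside 3113 of all 8814 symbols. Of 30 genes of small nuclear ribonucleoproteins and RNA polymerase II 15 were lower and 3 higher, with Polr2i at 914, 852, 466, 693 and 726. The lists differed in position relative to the control. By ligand mean, 65 of the 81 cytosolic ribosomal genes were toward it, 13 past and 3 away. Away from the control were 49 of the 76 respiration, 48 of the 69 mitochondrial ribosomal, 30 of the 34 proteasome and 17 of these last 30 genes. Over all 8814 symbols 4060 were away.

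Most of these genes are short, and the shared sign moved with gene span over all genes. Span is the length of the gene with its introns in RefSeq GRCr8, which could be looked up for 98.7% of the symbols. In the shortest 20% of genes, 0.153 to 8.35 kb, 46.1% of genes were lower in all 3 ligand libraries and 10.5% higher. In the longest 20%, 65.2 to 2727 kb, 12% were lower and 47.0% higher, and the 3 groups between lay in order. The median difference went from -0.14 to 0.15 with In-Cl, from -0.04 to 0.04 with DPN and from -0.07 to 0.08 with E2. Without the ribosomal and respiration lists the 1579 other genes of the shortest 20% still had 43.8% lower and 11.2% higher. Of the 89 higher genes inside the size limit 37 were in the longest 20% and 8 in the shortest, and of the 49 lower genes 2 and 22.

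**Figure D4:**
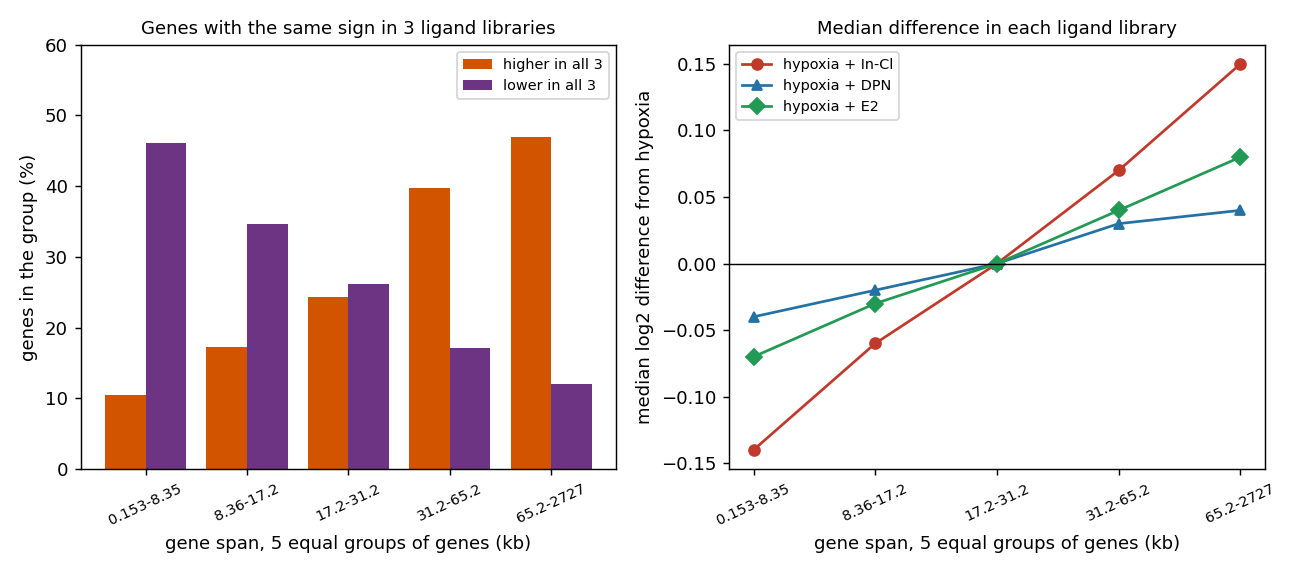
Left, the percentage of genes higher or lower than hypoxia in all 3 ligand libraries in 5 equal groups by gene span. Right, the median log2 difference from hypoxia in each ligand library. From the shortest to the longest group the share lower in all 3 goes from 46.1% to 12% and the share higher from 10.5% to 47.0%.

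When each library's differences were centred within 20 bins of gene span, a step chosen after the data were seen, the list counts changed unequally. Of the 81 cytosolic ribosomal genes, 77 of which are in the shortest group, 36 were then lower in all 3 and 1 higher, with a median of -0.04. Over all 8699 genes with a span, 2213 were then lower and 2247 higher. The respiration genes went to 27 lower and 6 higher of 76. The genes of small ribonucleoproteins and polymerase II went to 9 lower and 7 higher of 30. The mitochondrial ribosomal genes went to 22 lower and 11 higher of 69, and the proteasome genes to 10 lower and 3 higher of 34. The contractile list gave 10 lower and 0 higher with a median of -0.16, and the actin list gave 15 lower and 1 higher. The part of span in the differences of single genes was not tested.

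**Figure D5:**
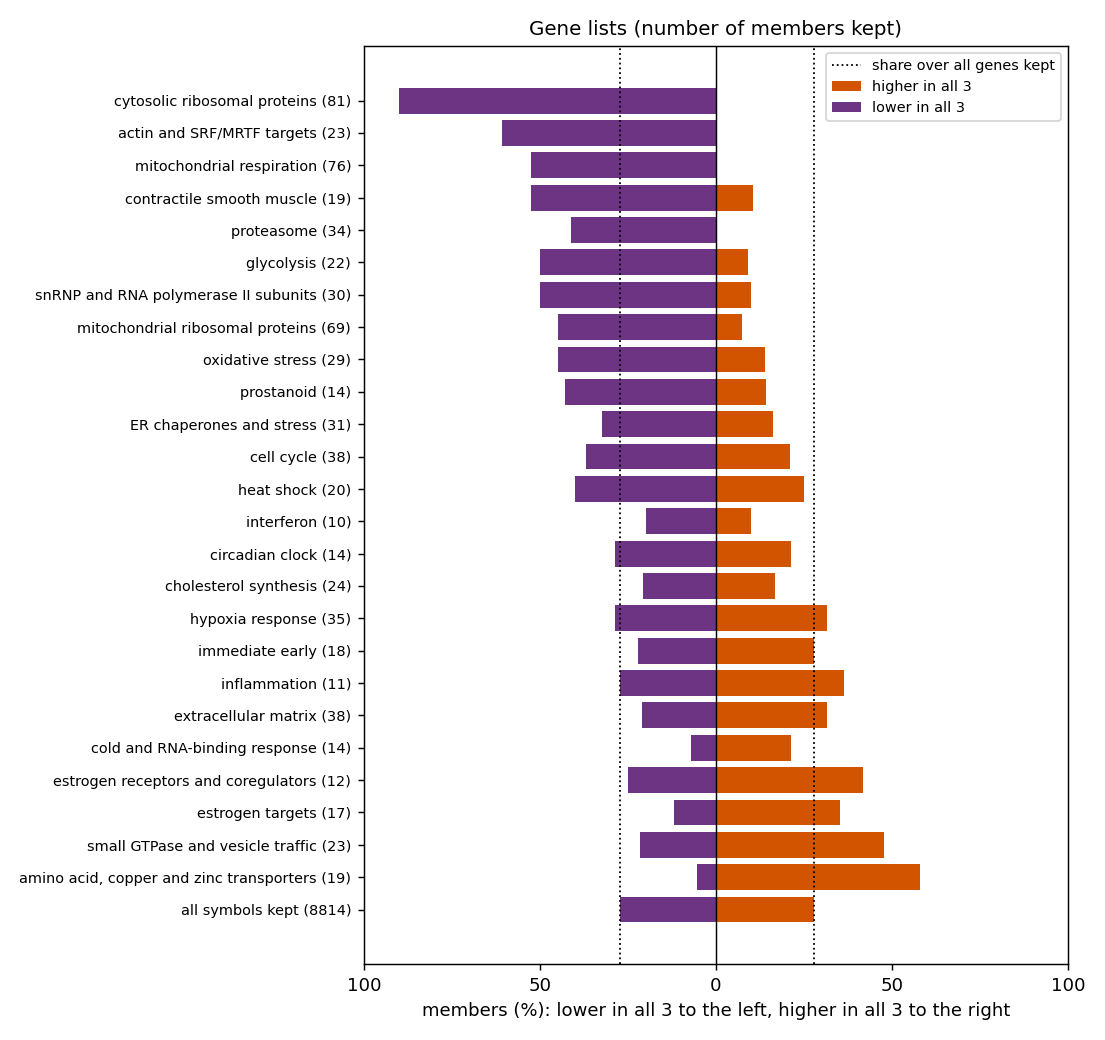
Percentage of the kept members of each gene list that were lower (left) or higher (right) than hypoxia in all 3 ligand libraries, with dotted lines at the shares over all 8814 symbols (27.3% and 27.7%). Cytosolic ribosomal proteins reach 90.1% lower and the transporter list 57.9% higher.

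Transport and vesicle genes leaned the other way. Of 19 transporters of amino acids, copper and zinc 11 were higher in all 3 (57.9%) and 1 lower, with a median of 0.10, and centring by span gave 12 and 2. For 4 of the 11 all 3 counting intervals lay above 0, and for the 1 lower gene all 3 lay below 0. Atp7a, the copper pump, had a linear value of 276 in the control and 240 in hypoxia, and 409, 298 and 360 with In-Cl, DPN and E2 in turn, the zinc transporter Slc39a9 332, 282, 409, 339 and 420, and the cationic amino acid transporter Slc7a2 421, 477, 831, 597 and 569. In all 3 genes In-Cl was well above hypoxia and DPN less so. The lowest of the list were Slc3a2, at -0.27, -0.15 and -0.12 against hypoxia, and Slc1a5, at -0.16, -0.15 and 0.05. Of 23 genes of vesicle traffic 11 were higher and 5 lower, with a median of 0.04. All 3 counting intervals lay above 0 for 5 of the 11, and below 0 for 0 of the lower genes. Lnpep, an aminopeptidase of vesicles that carry glucose transporters, had 250, 256, 596, 356 and 481, and Chm, an escort protein of Rab GTPases, had 422, 248, 467, 448 and 359.

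Genes tied to estrogen action went both ways. Of 12 kept receptors and coregulators 5 were higher and 3 lower, with a median of 0.09. The coactivators Ncoa2 (272 in the control, 283 in hypoxia, then 455, 345 and 364 with In-Cl, DPN and E2) and Med1 (903, 773, 1239, 955 and 912) were highest. Of 17 genes listed as estrogen targets from other tissues 6 were higher and 2 lower, with a median of 0.06. Cxcl12, a chemokine, had 7857, 8011, 11166, 10469 and 8300 in the order control, hypoxia, In-Cl, DPN, E2, and the cyclin gene Ccnd1 had 5622, 6850, 6931, 6831 and 6826, nearly level across the 4 hypoxic libraries. The receptors themselves were near the detection limit and below the filter: about 4, 9, 16, 3 and 12 reads for Esr1, 4, 14, 15, 22 and 6 for Esr2, and 7, 7, 3, 6 and 3 for Gper1, the membrane estrogen receptor.

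Ptgs2 did not take a shared sign. It had a linear value of 111 in the control and 258 in hypoxia, and 218, 222 and 306 with In-Cl, DPN and E2 in turn, and each counting interval against hypoxia included 0 (-0.51 to 0.03, -0.49 to 0.05 and -0.01 to 0.50). A difference from hypoxia was thus not detectable at this depth with any of the 3. Ptgs1, the constitutive cyclooxygenase, was under the filter with 19.7, 18.7, 47.4, 28.7 and 41.5. Of 14 kept prostanoid genes 6 were lower in all 3 and 2 higher, with a median of -0.17. Besides Cbr1, which reduces prostaglandins among other carbonyls, Tbxa2r, the thromboxane receptor, had 354, 615, 455, 509 and 508, Ptgis, the prostacyclin synthase, 1754, 1980, 1616, 1738 and 1833, and the prostaglandin transporter Slco2a1 161, 239, 179, 207 and 178. In these 3 genes all ligand values lay below hypoxia, and in Tbxa2r and Slco2a1 all lay above the control.

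The remaining lists are given by their counts. Of 29 oxidative stress genes 13 were lower and 4 higher, with Gstp1 at -0.36, -0.30 and -0.13. Of 38 cell cycle genes 14 were lower and 8 higher, of 31 endoplasmic reticulum chaperone and stress genes 10 and 5, and of 20 heat shock genes 8 and 5. The small heat shock protein Hspb6 was lowest in that last list, with 443 in the control, 502 in hypoxia, then 334, 311 and 391. Of 24 cholesterol genes 5 were lower and 4 higher, of 38 matrix genes 8 and 12, of 18 immediate early genes 4 and 5, of 14 clock genes 4 and 3, of 14 genes of the cold response 1 and 3, of 11 inflammation genes 3 and 4, and of 10 interferon genes 2 and 1. Egr1, an immediate early transcription factor, had 174, 88.0, 195, 177 and 107, so the In-Cl and DPN values lay just above the control and the E2 value nearer to hypoxia. The matrix proteoglycan Omd had 662, 1068, 1803, 1837 and 1375, the control lowest.

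Side by side, the ligand libraries were about as far from each other as from hypoxia. The median absolute log2 difference from hypoxia was 0.151, 0.097 and 0.101 with In-Cl, DPN and E2 in turn, and between ligands it was 0.122 for In-Cl and DPN, 0.122 for In-Cl and E2 and 0.09 for DPN and E2. Between hypoxia and control it was 0.215. In-Cl and DPN were given at the same dose, and 15 genes were 2-fold or more higher with In-Cl than with DPN and 3 lower. The 6 neighbouring genes around Nrip3 that were far lower in the DPN library are among the 15. E2 was given at 10 nM, so its distance from the other 2 is listed without a comparison of the compounds. Against hypoxia 12 genes were 2-fold or more higher (0.136%) and 7 lower (0.0794%) with In-Cl, 1 (0.0113%) and 11 (0.125%) with DPN, and 1 (0.0113%) and 7 (0.0794%) with E2. The same 6 neighbours are among the 11. None of these 3 pairs of ligands could be tested, with 1 library each.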

How the data were processed

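Per the labels' protocols, Trizol was used to take RNA from the 5 cultures, and a SMARTer kit that keeps strand made the libraries. The authors deposited log2 values per gene, which from the values themselves are the log2 of an adjusted read count plus 1. Per the submitters' processing notes the tools were TopHat and edgeR and the genome build was rn6. Whatever concerns tool versions, the counter, the annotation or the use of strand is not given in the sources used here.

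Deposited values were taken back to the linear scale. Low linear values came in equal steps, 1 step for 1 read, of 0.839 for the control library, 1.03 for hypoxia, and 0.988, 1.06 and 1.1 for In-Cl, DPN and E2 in turn, and 88.9% to 100% of the values up to 2.5 reads lay within 0.2 reads of a whole number. Approximate reads are linear values divided by the step and set only the counting intervals. Those intervals cover counting error only, since without molecular identifiers several reads can come from 1 molecule.

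Symbols were kept at a mean linear value of at least 100 over the 5 libraries, the row of highest mean for each symbol. Differences are between log2 values, and no test was run because each group has 1 library. Of the 8814 symbols, 8699 (98.7%) were found in RefSeq GRCr8, 8172 of them by their current symbol, and 7279 (82.6%) had a promoter.

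Genes were named by rule: the 12 largest each way by the least of the 3 differences; the 8 of largest hypoxia difference each way with all 3 ligand values toward the control; the 6 largest each way past the control; the 2 highest and 2 lowest of each list, shortened to examples in the text; and Ptgs2, Ptgs1, Esr1, Esr2 and Gper1. Among the list examples Acta2, Tagln, Myl9, Cnn1, Slc39a9, Hmox1, Ccnd1, Tbxa2r and Ptgis are outside the rule. The rule skips small RNAs and uncharacterised symbols. 1 gene that it names among those low in hypoxia is not reported here. The members, the 32 lists and the rule were chosen with earlier results of these data known. Protein length, which was planned as a feature, was not analysed here, and gene span took its place after the data were seen.

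The alternatives covered the filter, the pseudocount, 2 other scalings, leaving out each ligand library, keeping every row, counting intervals, other folds and the choice of hypoxia genes. The steps were tested on simulated data. Python 3.11.15, numpy 2.4.6, pandas 2.3.3, scipy 1.17.1 and matplotlib 3.10.9 were used.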

Additional observations from a re-analysis of the deposited data

How the results depend on the processing

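Across 21 results there were 214 alternative values, of which 179 kept their direction and stayed near the reported value, 33 moved and 2 reversed. Adding 10 to the linear value, centring each library on its median and keeping every row without collapse moved none of the 21. With no filter beyond detection, 470 genes were higher and 621 lower inside the size limit, 2616 with a shared sign were toward and 1688 past the control, and the medians taken back were 25.3% (genes high in hypoxia) and 32.2% (low in hypoxia). The cause was not tested, though that setting adds genes with few reads. Keeping genes of mean linear value 500 or more, by construction fewer, left 1442 higher and 1551 lower, 19 and 7 of them inside the size limit, with 999 toward, 619 past and 1371 away, 1.37% taken back by genes high in hypoxia and 16 mitochondrial ribosomal genes lower. Requiring all 3 counting intervals on 1 side of 0 left 538 higher and 524 lower, with 306 toward, 367 past and 388 away, against 1709, 1058 and 2078 of all genes with a shared sign. After quantile normalization the genes low in hypoxia took back 20.7%. Then 38 ribosomal and 5 glycolysis genes were lower, beside 2424 of all 8814. The cause was not tested. Centring by gene span, added after the data were seen, gave 36 ribosomal genes and 9 of the ribonucleoprotein and polymerase list. Over all 8699 genes with a span 2213 were then lower. Choosing hypoxia genes at 1.5-fold gave 8.19% for those low in hypoxia, and at 4-fold 1.67% for those high in it. Choosing them by the ligand mean, also added later, reversed both medians, to -0.436% and -9.01%. Leaving out 1 ligand library, which can only raise a count of shared signs, gave 115 to 212 higher genes inside the size limit (115 without In-Cl, 212 without DPN, 161 without E2), 93 to 118 lower ones (93, 102 and 118 in that order) and 14 to 25 proteasome genes, 25 without E2. Without E2, 3113 of all 8814 symbols were lower in the other ligand libraries. No paired analysis was possible because each group has 1 library. Depth limits the genes under a linear value of 200, where much of the size limit sets lie, and Esr1, Esr2 and Gper1, at 22 reads or fewer.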
